A study of Homo sapiens with 12 samples.

Results

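TGF-beta and BMP signalling readouts were followed in the spheroids through 10 genes, taken by their symbols from the gene tables: the ligand genes TGFB1, TGFB2, INHBA and BMP4, the receptor genes TGFBR1 and TGFBR2, the inhibitory SMAD gene SMAD7 and the target genes ID1, ID2 and ID3. All 10 were found among the 26485 genes of the tables, and 9 of them were among the 14732 genes with enough counts for the test, INHBA being the exception. The RNA came from spheroids of 3 lines made from DU145 cells (an established prostate carcinoma line), with 4 biological replicates of each line and 12 samples in all. All 3 lines carry the same CRISPR-Cas9 knockout of ITGA2, the gene of the α2 integrin subunit, which pairs with β1 to form a collagen receptor. DU145KO received no further vector, DU145KO+vector was stably transfected with empty pAWneo2, and DU145KO+α2 with pAWneo2 carrying the α2 integrin cDNA, and both transfected lines were kept under geneticin. Spheroids of 8000 cells were cultured without serum for 72 hours before RNA was extracted. A single line of each kind was analysed, so that the α2 cDNA and the history of the line that received it cannot be told apart in a comparison of DU145KO+α2 with another line, and DU145KO+vector against DU145KO shows what differed between lines that both lack the cDNA.

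TGF-beta ligands bind TGFBR2, a serine/threonine kinase receptor, which then recruits and phosphorylates TGFBR1, and the type I receptor phosphorylates SMAD2 and SMAD3. BMPs act through other receptor pairs on SMAD1, SMAD5 and SMAD8, and ID1, ID2 and ID3, inhibitors of basic helix-loop-helix transcription factors, are the classical genes that BMP induces. SMAD7 is induced by both branches and blocks the type I receptors in a feedback loop. In epithelial cells TGF-beta is known as a growth inhibitor and, in many carcinomas, as an inducer of migration and matrix production.

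ITGA2 ran from 259 to 332 CPM (counts scaled to the library size after TMM normalization) in the 4 DU145KO+α2 samples and from 13.0 to 25.8 CPM in the 8 samples without the cDNA. The counts summed to 13948734 to 19988111 in a sample, and 3 counts, taken as the detection floor, corresponded to 0.150 to 0.215 CPM, a limit that covers counting error only. The labelled cell type was checked with its markers. The summed level of the 5 epithelial genes EPCAM, KRT8, KRT18, KRT19 and CDH1 was 1211 to 1584 CPM in DU145KO, 1142 to 1387 CPM in DU145KO+vector and 859.7 to 1154 CPM in DU145KO+α2. Of the markers of other cell types, the leukocyte gene CD14 was 1.52 to 2.63 CPM in DU145KO, 1.27 to 2.37 CPM in DU145KO+vector and 1.49 to 1.89 CPM in DU145KO+α2, and the leukocyte genes PTPRC and CD3E did not exceed 0.0718 CPM. The 5 fibroblast genes COL1A1, COL1A2, COL3A1, DCN and LUM summed to 9.04 to 12.3 CPM in DU145KO, 7.71 to 11.6 CPM in DU145KO+vector and 9.84 to 11.5 CPM in DU145KO+α2, almost all of it COL1A1, with LUM at 0 throughout and the other 3 at no more than 3 counts in a sample. The 3 endothelial genes PECAM1, VWF and KDR summed to 2.81 to 3.63 CPM, 1.09 to 2.55 CPM and 2.35 to 3.79 CPM in the same order of lines, with KDR the highest of them at up to 2.98 CPM and VWF at no more than 0.276 CPM. Each spheroid was made from cells of a single line, and the methods of the study describe no other cell type in the culture. The bearing of these low levels on the results below was not tested. In bulk RNA, fewer cells of a type and less RNA per cell cannot be told apart.

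The members that differed most were TGFBR2 and BMP4. In DU145KO+α2, TGFBR2 was lower by 1.59-fold than in DU145KO+vector and by 1.49-fold than in DU145KO, while the lines without the cDNA did not differ beyond their spread. BMP4 stepped down from DU145KO over DU145KO+vector to DU145KO+α2, where it was 3.51-fold lower than in DU145KO. TGFB2 was 1.31-fold higher in DU145KO+α2 when set against DU145KO+vector, while its difference from DU145KO did not pass the test. ID1, ID2 and ID3 varied more between replicates of a line than the line means did, and none of them passed the test without the replicate number in the model.

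A gene was called when its p-value from edgeR's quasi-likelihood test, adjusted by the Benjamini-Hochberg method over all genes tested, was below 0.05. This test modelled the line alone and left the replicate number out. In DU145KO+α2 against DU145KO+vector, 3 of the 9 tested members were called, TGFB2 upwards and TGFBR2 and BMP4 downwards, where 11.9% of all genes tested were called, 5.96% higher and 5.95% lower. In DU145KO+α2 against DU145KO it was 2 of 9, TGFBR2 and BMP4, both lower, against 8.17% of all genes called and 5.08% called lower. In DU145KO+vector against DU145KO it was BMP4 alone, which was lower, against 2.34% of all genes called and 1.84% called lower. Every 2 of these comparisons share the samples of 1 line, so they are not independent of each other. The median log2 fold change of the 9 members was 0.18, −0.02 and −0.04 in the 3 comparisons, and that of all genes tested was −0.0062, −0.0031 and −0.0011. With a fold change above 2 asked for as well, BMP4 was the member called, in both comparisons with DU145KO (2.1% and 0.835% of all genes), and no member was called between the transfected lines (2.21% of all genes), by edgeR, DESeq2 or voom with limma, where 5 of the 9 members had an unadjusted edgeR p below 0.05.

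Samples with the same replicate number deviated from their line means together, and a model with the number as a block called more genes in every comparison. With the block, 7 of the 9 members were called between the transfected lines (26.5% of all genes), 4 of 9 in DU145KO+α2 against DU145KO (22.3%) and 2 of 9 in DU145KO+vector against DU145KO (13.4%). Members that were called with the block alone are given below with both adjusted p-values.

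**Figure D1:**
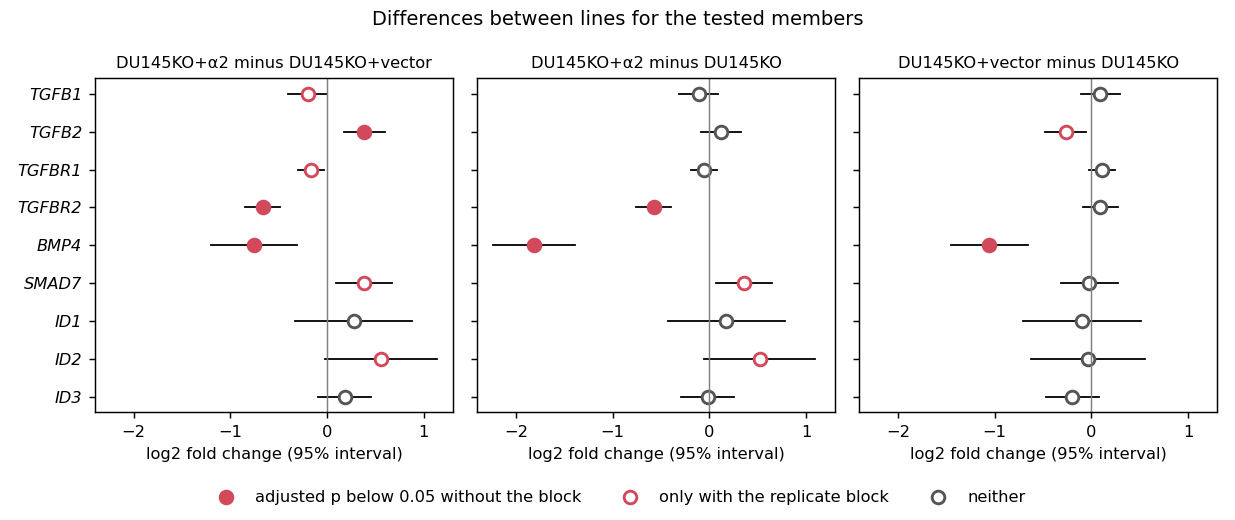
Log2 fold change of the 9 tested members in the 3 comparisons (points, from edgeR without the block) with the 95% interval of each (lines). TGFBR2 and BMP4 lie to the left of 0 in both comparisons of DU145KO+α2, BMP4 also in DU145KO+vector against DU145KO, and open red points mark members called with the replicate block alone, such as SMAD7 at 0.38 and 0.36.

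The promoters of the members were read from RefSeq (GRCh38.p14) as the 250 bases before the start site, and all 10 members were matched. Shown are those of the called members TGFBR2, BMP4 and TGFB2, and of SMAD7 and ID1 as the feedback inhibitor and the most abundant target gene. Capitals mark GTCT or its reverse complement AGAC, the short box that SMAD3 and SMAD4 are known to bind, and GGCGCC, a GC-rich motif associated with SMAD1 and SMAD5. TGFBR2 is given at chr3:30606351-30606600 (plus strand), BMP4 at chr14:53955051-53955300 (minus strand), TGFB2 at chr1:218345086-218345335 (plus strand), SMAD7 at chr18:48950966-48951215 (minus strand) and ID1 at chr20:31605039-31605288 (plus strand).
TGFBR2: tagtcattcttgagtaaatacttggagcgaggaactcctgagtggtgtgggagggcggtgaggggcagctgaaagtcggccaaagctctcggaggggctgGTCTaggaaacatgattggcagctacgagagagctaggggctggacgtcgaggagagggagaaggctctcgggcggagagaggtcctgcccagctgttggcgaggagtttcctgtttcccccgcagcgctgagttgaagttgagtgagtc
BMP4: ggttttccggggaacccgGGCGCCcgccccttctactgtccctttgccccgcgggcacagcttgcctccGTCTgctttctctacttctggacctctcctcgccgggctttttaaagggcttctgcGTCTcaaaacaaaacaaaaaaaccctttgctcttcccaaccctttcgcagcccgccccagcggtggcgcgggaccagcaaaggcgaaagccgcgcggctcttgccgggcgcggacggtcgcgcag
TGFB2: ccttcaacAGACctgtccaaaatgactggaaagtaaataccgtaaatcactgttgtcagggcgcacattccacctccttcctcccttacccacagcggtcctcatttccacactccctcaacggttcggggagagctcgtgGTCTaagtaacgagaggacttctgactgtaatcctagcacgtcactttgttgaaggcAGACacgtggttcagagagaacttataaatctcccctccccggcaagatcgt
SMAD7: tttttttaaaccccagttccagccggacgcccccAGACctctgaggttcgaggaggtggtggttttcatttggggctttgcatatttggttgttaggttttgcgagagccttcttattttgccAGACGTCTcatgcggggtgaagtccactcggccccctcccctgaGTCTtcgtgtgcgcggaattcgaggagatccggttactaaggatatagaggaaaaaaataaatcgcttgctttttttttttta
ID1: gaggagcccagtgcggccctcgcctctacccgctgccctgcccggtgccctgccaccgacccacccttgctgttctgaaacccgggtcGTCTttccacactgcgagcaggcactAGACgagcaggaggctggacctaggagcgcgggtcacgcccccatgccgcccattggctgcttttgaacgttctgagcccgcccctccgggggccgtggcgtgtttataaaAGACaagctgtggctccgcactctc
The SMAD7 window holds 4 matches to GTCT or AGAC, of which 2 adjoin as an inverted pair, the TGFB2 and ID1 windows hold 3 each, BMP4 holds 2 and TGFBR2 holds 1. Such short boxes are common, since 77.5% of all 35116 RefSeq promoter windows of this length hold at least 1, with a median of 1. GGCGCC was found once among the members, in BMP4, and in 16.4% of all windows. The BMP4 window lies 3711 bases inside the annotated start of the gene, at the nearest RefSeq start. A match describes these letters and not a bound site.

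The ligands came first in the comparison. BMP4 (chr14:53949736-53958761, minus strand), a BMP ligand that signals through SMAD1 and SMAD5, reached 8.34, 6.54, 4.92 and 6.91 CPM in the DU145KO samples, given here and below in the order of replicates 1 to 4. In DU145KO+vector it was 3.93, 3.23, 2.88 and 2.76 CPM, and in DU145KO+α2 it was 1.49, 2.30, 1.71 and 2.04 CPM. The 3 lines did not overlap, and every DU145KO+vector sample stood between the samples of the other lines. The log2 fold change was −1.81 (standard error, SE, 0.20, edgeR adjusted p = 4.12e-05) in DU145KO+α2 against DU145KO and −1.05 (SE 0.19, edgeR adjusted p = 0.00726) in DU145KO+vector against DU145KO, lower by 2.08-fold. Between the transfected lines it was −0.76 (SE 0.21, 95% interval −1.20 to −0.32, edgeR adjusted p = 0.0257), and DU145KO+α2 was lower in 4 of 4 pairs of samples with the same number. This last step rested on 24 to 46 counts per sample in DU145KO+α2 and 40 to 71 in DU145KO+vector. It was no longer called without DU145KO+α2 replicate 1 (edgeR adjusted p = 0.0773), DU145KO+α2 replicate 3 (0.0733), DU145KO+vector replicate 1 (0.0849) or DU145KO+vector replicate 2 (0.0565). The step from DU145KO to DU145KO+vector stayed called without any 1 sample but came to a fold change of less than 2 without DU145KO replicate 1 (log2 fold change −0.92) or DU145KO+vector replicate 4 (−0.99).

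Of the 5 epithelial genes, the adhesion genes EPCAM and CDH1 were highest in DU145KO and lowest in DU145KO+α2, as BMP4 was. Unlike BMP4, EPCAM overlapped between the transfected lines. EPCAM was 140 to 186 CPM in DU145KO, 82.2 to 93.7 CPM in DU145KO+vector and 57.3 to 88.4 CPM in DU145KO+α2. CDH1 was 118 to 161 CPM, 83.4 to 116 CPM and 46.8 to 74.7 CPM in the same order. KRT18 was ordered likewise but with overlap, at 357 to 463, 289 to 394 and 254 to 335 CPM. KRT8 and KRT19 did not follow, KRT8 at 399 to 624, 442 to 614 and 320 to 479 CPM and KRT19 at 185 to 225, 211 to 249 and 173 to 225 CPM. The part of the epithelial state in the BMP4 and TGFBR2 results was not tested.

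TGFB2 (chr1:218345336-218444619, plus strand), one of the 3 TGF-beta ligands of mammals, had 19.8, 20.3, 20.5 and 19.9 CPM in DU145KO+α2. In DU145KO+vector it had 13.2, 16.9, 13.98 and 17.8 CPM. All DU145KO+α2 samples were above all DU145KO+vector samples, and they lay within 1.03-fold of each other, whereas the DU145KO+vector samples spread over 1.35-fold. This difference came to 0.39 on the log2 scale (SE 0.10, edgeR adjusted p = 0.0188). In DU145KO it was 17.9, 19.6, 19.1 and 17.6 CPM, close below DU145KO+α2. The log2 fold change of DU145KO+α2 against DU145KO was 0.12 (95% interval −0.09 to 0.33, edgeR adjusted p = 0.547), and that of DU145KO+vector against DU145KO was −0.27 (edgeR adjusted p = 0.209, 0.0481 with the block, 0.0481 to 0.450 over 20 alternatives). The call between the transfected lines was lost without DU145KO+vector replicate 1 (edgeR adjusted p = 0.0542) and without DU145KO+vector replicate 3 (0.0687), the samples with the lowest values. Exons of TGFB2 overlap those of TGFB2-OT1 on the same strand over 22.7% of their bases and those of TGFB2-AS1 on the other strand over 11.6%, and the sources used here do not give whether the counting used strand, so that its reads cannot be fully assigned. Exon overlaps on the other strand were found as well for BMP4 (16.3% of its exon bases), TGFB1 (6.59%), ID2 (6.55%) and INHBA (2.99%).

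TGFB1 (chr19:41301587-41353922, minus strand), the TGF-beta ligand with the higher level per length in every line, was 78.9, 83.6, 65.0 and 85.3 CPM in DU145KO. The DU145KO+vector samples had 84.1, 89.6, 73.2 and 87.1 CPM, those of DU145KO+α2 68.5, 80.3, 66.3 and 75.3 CPM. The lines overlapped, and replicate 3 was the lowest sample in each. Between the transfected lines, the log2 fold change was −0.20 (SE 0.09, edgeR adjusted p = 0.201), with DU145KO+α2 lower in 4 of 4 same-number pairs. With the block the adjusted p was 0.00761, and it ran from 0.00761 to 0.433 over 20 alternatives. The log2 fold changes against DU145KO were −0.11 in DU145KO+α2 (95% interval −0.31 to 0.09) and 0.09 in DU145KO+vector (95% interval −0.11 to 0.30).

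The ratio of TGFB1 to TGFB2, in RPKM (the deposited values per gene length, which allow levels of different genes to be compared), was 9.76 ± 1.39 (SD, n = 4) in DU145KO, 12.6 ± 1.47 in DU145KO+vector and 8.31 ± 0.733 in DU145KO+α2. INHBA (chr7:41667168-41705834, minus strand), which encodes the subunit of activin A, was counted 0, 1, 0 and 2 times in DU145KO, 1, 0, 1 and 1 times in DU145KO+α2 and 2, 1, 0 and 1 times in DU145KO+vector. No sample was above the floor of 3 counts, so a difference was not detectable at this depth (two-sided exact permutation tests, p = 0.486, 0.8286 and 0.571 in the order of comparisons used above, where 0.0286 is the smallest that 4 samples against 4 allow).

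**Figure D2:**
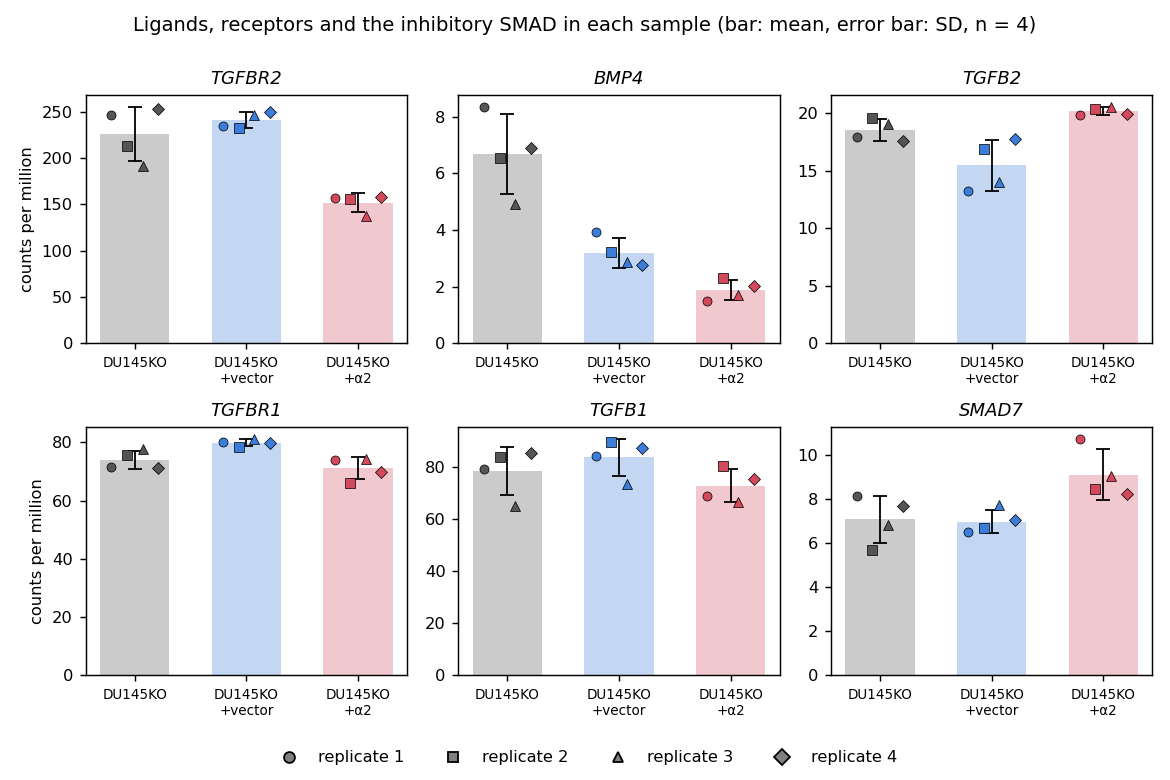
CPM of 6 members in each of the 12 samples (points, with 1 symbol per replicate number), with the mean of each line (bar) and its SD (error bar, n = 4). TGFBR2 is lower in all DU145KO+α2 samples (137 to 158 CPM) than in any other sample (192 to 253 CPM), and BMP4 falls in steps over the 3 lines.

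Of the receptors, TGFBR2 (chr3:30606601-30694142, plus strand), the receptor that binds TGF-beta first, was 246, 213, 192 and 253 CPM in DU145KO and 235, 232, 247 and 249 CPM in DU145KO+vector. In DU145KO+α2 it was 157, 156, 137 and 158 CPM. Every DU145KO+α2 sample was below every sample of the other lines, which overlapped with each other. Against DU145KO+vector its log2 fold change was −0.67 (SE 0.09, 95% interval −0.85 to −0.48, edgeR adjusted p = 0.000155), and against DU145KO −0.57 (SE 0.09, 95% interval −0.76 to −0.39, edgeR adjusted p = 0.000554). DU145KO+vector differed from DU145KO by 0.09 (95% interval −0.09 to 0.27, edgeR adjusted p = 0.697). Both differences of DU145KO+α2 were called under all 20 alternatives, with log2 fold changes between −0.68 and −0.61 and between −0.65 and −0.51. The 27 tested genes within 5 Mb of TGFBR2 had a median log2 fold change of −0.07 against DU145KO+vector and −0.01 against DU145KO, far from the values of TGFBR2 itself.

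TGFBR1 (chr9:99104038-99154192, plus strand), the signalling partner of TGFBR2, was 73.8, 66.2, 74.4 and 69.97 CPM in DU145KO+α2. The DU145KO+vector samples had 80.0, 78.6, 81.3 and 79.7 CPM. These samples did not overlap, and the DU145KO samples, at 71.6, 75.5, 77.7 and 71.1 CPM, lay below DU145KO+vector and overlapped with DU145KO+α2. The log2 fold change between the transfected lines was −0.17 (SE 0.06, 95% interval −0.30 to −0.03), with an adjusted p of 0.102 from edgeR, of 0.0217 with the block and of 0.0217 to 0.216 over 20 alternatives. The 40 tested genes within 5 Mb of TGFBR1 had a median of −0.32 in the same comparison, below the value of TGFBR1, so that relative to its neighbours the gene was higher by 0.15. Against DU145KO the log2 fold change of DU145KO+α2 was −0.06 (95% interval −0.19 to 0.08).

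The receptors did not move by the same amount. The RPKM ratio of TGFBR2 to TGFBR1 was 4.77, 3.92, 3.42 and 4.95 in DU145KO, 4.07, 4.10, 4.21 and 4.34 in DU145KO+vector and 2.95, 3.27, 2.55 and 3.13 in DU145KO+α2. All DU145KO+α2 samples were below the other 8, and since the ratio repeats the fall of TGFBR2 it is given with no test of its own. The mean was 4.26 ± 0.717 (SD, n = 4), 4.18 ± 0.122 and 2.97 ± 0.309.

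SMAD7 (chr18:48919853-48950965, minus strand), the feedback inhibitor, was 10.7, 8.45, 9.04 and 8.21 CPM in DU145KO+α2. In DU145KO+vector it was 6.48, 6.68, 7.71 and 7.03 CPM and in DU145KO 8.14, 5.68, 6.82 and 7.67 CPM. All DU145KO+α2 samples were above the other 8, by as little as 8.21 against 8.14 CPM. Against DU145KO+vector it was higher by 0.38 on the log2 scale (SE 0.14, 95% interval 0.09 to 0.67), with an adjusted p of 0.0842 from edgeR, of 0.0203 with the block and of 0.0203 to 0.226 over 20 alternatives. Against DU145KO it was 0.36 (SE 0.14, 95% interval 0.07 to 0.65), with an adjusted p of 0.125 from edgeR, of 0.0307 with the block and of 0.0307 to 0.319 over 20 alternatives. In both comparisons SMAD7 was called with the block, and it was not called by the alternatives that leave the replicate number out. DU145KO+α2 was higher in 4 of 4 same-number pairs. DU145KO+vector and DU145KO differed by −0.02 (95% interval −0.31 to 0.28).

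ID1, ID2 and ID3, the BMP target genes, differed between replicates more than between lines. ID1 (chr20:31605283-31606515, plus strand) was 118, 71.7, 54.8 and 74.3 CPM in DU145KO and 106, 62.0, 61.6 and 68.1 CPM in DU145KO+vector. In DU145KO+α2 it was 105, 64.0, 77.3 and 114 CPM. Replicate 1 was the highest sample of both lines without the cDNA and replicate 4 the highest of DU145KO+α2, and the highest was 1.72-fold to 2.16-fold above the lowest within a line. Between the transfected lines ID1 differed by 0.27 on the log2 scale (SE 0.27, 95% interval −0.33 to 0.88, edgeR adjusted p = 0.610), and DU145KO+α2 differed from DU145KO by 0.18 (95% interval −0.43 to 0.78).

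ID2 (chr2:8678845-8684461, plus strand) measured 12.9, 11.2, 10.2 and 22.5 CPM in DU145KO+α2, against 12.4, 7.11, 7.54 and 11.4 CPM in DU145KO+vector and 12.6, 9.10, 7.13 and 10.7 CPM in DU145KO. Replicate 4 of DU145KO+α2 stood above all other samples, and the rest of the 3 lines overlapped. DU145KO+α2 was the higher sample in 4 of 4 same-number pairs in both comparisons. The log2 fold change was 0.56 (SE 0.27, 95% interval −0.02 to 1.14, edgeR adjusted p = 0.223) against DU145KO+vector and 0.52 (SE 0.27, edgeR adjusted p = 0.290) against DU145KO. With the block the adjusted p was 0.00927 and 0.0172, within ranges of 0.00927 to 0.558 and 0.0172 to 0.691 over 20 alternatives. Without DU145KO+α2 replicate 4, the log2 fold changes dropped to 0.25 and 0.21, the lowest of all alternatives.

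ID3 (chr1:23557926-23559501, minus strand) was 59.0, 51.9, 42.0 and 51.9 CPM in DU145KO, 47.9, 41.4, 42.5 and 46.6 CPM in DU145KO+vector and 43.8, 46.7, 45.4 and 66.8 CPM in DU145KO+α2. Replicate 4 of DU145KO+α2 was again the highest of all samples, and the lines overlapped. No alternative called ID3 in any comparison, with log2 fold changes of 0.18 (95% interval −0.09 to 0.46) between the transfected lines, −0.02 (−0.29 to 0.26) in DU145KO+α2 against DU145KO and −0.20 (−0.47 to 0.08) in DU145KO+vector against DU145KO. The ID genes rose and fell together from sample to sample. With the mean of each line taken off, Pearson's r over the 12 samples was 0.80 for ID1 with ID2, 0.69 for ID1 with ID3 and 0.91 for ID2 with ID3 (Spearman's rho 0.87, 0.71 and 0.88). All of these genes were measured in the same libraries, and samples with the same replicate number deviated together, so the values are a description.

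**Figure D3:**
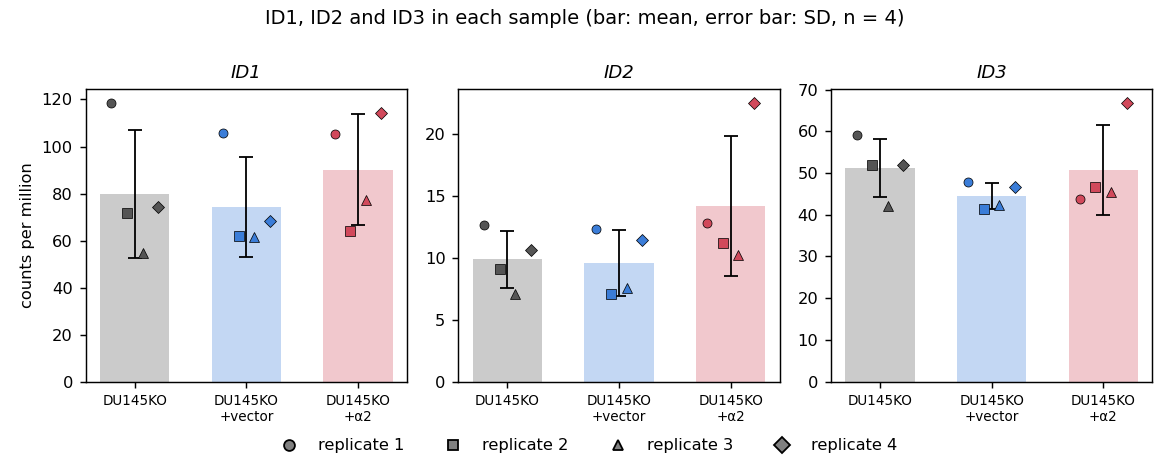
CPM of ID1, ID2 and ID3 in each of the 12 samples (points, with 1 symbol per replicate number), with the mean of each line (bar) and its SD (error bar, n = 4). Replicate 4 of DU145KO+α2 (diamond) is the highest point of its line for each gene, at 114, 22.5 and 66.8 CPM, and the 3 lines overlap.

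Per length, the order of the members was much the same in the 3 lines. In DU145KO the mean RPKM was 64.3 ± 22.4 (SD, n = 4) for ID1, 47.6 ± 6.35 for TGFBR2, 40.9 ± 5.86 for ID3, 30.0 ± 3.64 for TGFB1, 11.2 ± 0.411 for TGFBR1, 7.18 ± 1.75 for ID2, 3.19 ± 0.694 for BMP4, 3.08 ± 0.141 for TGFB2 and 2.04 ± 0.321 for SMAD7. The ranges of neighbours in this order overlapped for ID1 with TGFBR2, TGFBR2 with ID3 and BMP4 with TGFB2. In DU145KO+α2, TGFBR2 stood in the third place at 32.3 ± 2.26 RPKM, below ID3 at 40.9 ± 8.43 RPKM, and BMP4 in the ninth place at 0.908 ± 0.169 RPKM, below SMAD7 at 2.65 ± 0.356 RPKM. In DU145KO+vector, BMP4 was ninth as well, at 1.54 ± 0.266 RPKM, and TGFBR2 second at 51.1 ± 1.52 RPKM. The ranges of neighbours overlapped in DU145KO+α2 for ID1 with ID3, TGFBR2 with TGFB1 and TGFBR1 with ID2, and in DU145KO+vector for ID1 with TGFBR2, ID3 with TGFB1 and SMAD7 with BMP4.

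**Figure D4:**
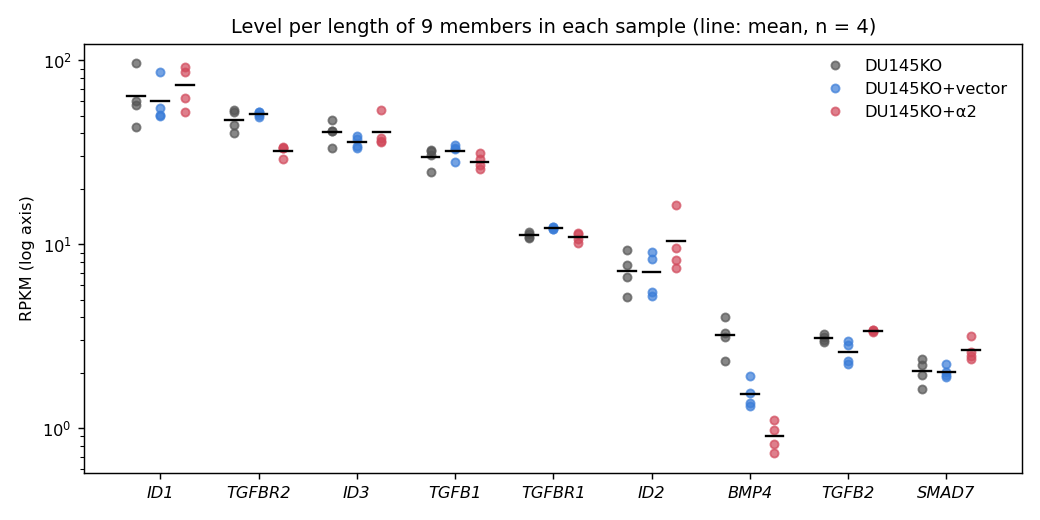
RPKM of 9 members in each sample on a log axis, grouped by line, with the line mean as a bar and INHBA left out. ID1, TGFBR2, ID3 and TGFB1 are the abundant members, and BMP4 drops from a mean of 3.19 RPKM in DU145KO to 0.908 RPKM in DU145KO+α2.

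Over the 12 samples, genes with a log2 CPM pattern among the 3 most like that of TGFBR2, of all genes tested, were GOLGA7B (Pearson's r 0.96) and SUCLG1, a subunit of a mitochondrial succinyl-CoA ligase (0.96). The genes most like BMP4 were CXCL5, a chemokine (0.96), SLC34A2, a phosphate transporter (0.96), and PLEKHA6 (0.95). SLC34A2 stepped down as BMP4 did, with 2.75 to 3.57 CPM in DU145KO, 0.827 to 1.33 CPM in DU145KO+vector and 0.236 to 0.435 CPM in DU145KO+α2. Those most like TGFB2 were THSD4 (0.92), SIK3, a serine/threonine kinase (0.91), and LOC100506990 (0.90).

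A further 124 genes of the pathway, in 8 lists, were read for context, and 86 of them had enough counts for the test. Between the transfected lines 16 of the 86 were called, 11 higher and 5 lower in DU145KO+α2, with a median log2 fold change of 0.09, against 11.9% of all genes called, 5.96% higher and 5.95% lower, and a median of −0.0062 over all genes. In DU145KO+α2 against DU145KO 9 were called, 5 higher and 4 lower (8.17% of all genes), and in DU145KO+vector against DU145KO 6 were called, 1 higher and 5 lower (2.34%). With the block these numbers were 27, 23 and 20, where 26.5%, 22.3% and 13.4% of all genes were called.

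Of the genes listed under TGF-beta latency and activation, 12 were tested, and between the transfected lines 3 were higher and 1 lower in DU145KO+α2. Over all genes tested, 5.96% were called higher and 5.95% lower there. LTBP1, which tethers latent TGF-beta to the matrix, was 39.6 to 43.8 CPM in DU145KO+α2, 22.9 to 31.2 CPM in DU145KO+vector and 27.2 to 35.1 CPM in DU145KO. Its log2 fold change was 0.62 against DU145KO+vector (edgeR adjusted p = 0.000801) and 0.41 against DU145KO (edgeR adjusted p = 0.0164). LTBP2, a matrix protein of the same family, was higher by 0.68 (edgeR adjusted p = 0.00361) and 0.52 (edgeR adjusted p = 0.0229). The calls against DU145KO were the weaker ones. That of LTBP1 was lost without DU145KO replicate 2 (adjusted p = 0.0626) or DU145KO+α2 replicate 1 (0.05003), and that of LTBP2 without DU145KO replicate 3 (0.0649) or 4 (0.0616) or DU145KO+α2 replicate 1 (0.0705) or 2 (0.0685).

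ITGB8, an integrin subunit that activates latent TGF-beta, was 7.68 to 11.1 CPM in DU145KO+α2, 5.96 to 7.25 CPM in DU145KO+vector and 4.43 to 5.68 CPM in DU145KO. It was higher by 0.82 in DU145KO+α2 against DU145KO (edgeR adjusted p = 0.00210) and had a log2 fold change of 0.40 against DU145KO+vector (edgeR adjusted p = 0.0821, 0.0216 with the block, 0.0216 to 0.250 over 20 alternatives). ITGAV, the partner of ITGB8, was called lower in DU145KO+α2 in both comparisons, at log2 fold changes of −0.30 and −0.29. BMP1, a protease that processes matrix proteins and the BMP antagonist chordin, was higher by 0.49 between the transfected lines (edgeR adjusted p = 0.00233), but the 58 tested genes within 5 Mb of it, on chromosome 8, had a median of 0.54, and relative to them BMP1 stood at −0.05.

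Of the 18 SMAD proteins and their regulators, 4 were higher and none lower in DU145KO+α2 against DU145KO+vector, by edgeR, DESeq2 and voom with limma alike, where edgeR called 5.96% of all genes higher and 5.95% lower. At an unadjusted edgeR p below 0.05 it was 5 and none. SMAD2, which carries the TGF-beta signal, was 217 to 265 CPM in DU145KO+α2, 120 to 156 CPM in DU145KO+vector and 164 to 212 CPM in DU145KO. Its log2 fold change was 0.79 against DU145KO+vector (edgeR adjusted p = 0.000133). It was 0.26 against DU145KO (edgeR adjusted p = 0.136, 0.0245 with the block, 0.0245 to 0.298 over 20 alternatives), and DU145KO+vector was lower than DU145KO, with a log2 fold change of −0.53 (edgeR adjusted p = 0.00920). The corepressor TGIF2 was higher by 0.56 between the transfected lines (edgeR adjusted p = 0.00310) and SMURF1, a ubiquitin ligase for SMADs, by 0.24 (edgeR adjusted p = 0.0304). The SMURF1 call was lost without DU145KO+α2 replicate 3 (0.102) or 4 (0.0655), without any 1 DU145KO+vector replicate (0.0732, 0.0565, 0.0527 and 0.0619 for replicates 1 to 4), with library size alone (0.0529) and in a fit of the compared lines alone (0.0508). SKIL, a SMAD corepressor that TGF-beta induces, was higher by 0.43 (edgeR adjusted p = 0.0287), a call lost without DU145KO+α2 replicate 1 (0.0699) or 3 (0.0963) or DU145KO+vector replicate 2 (0.0789), 3 (0.0727) or 4 (0.0688). In DU145KO+α2 against DU145KO none of the 18 was called by edgeR without the block, by DESeq2 or by voom with limma, and 4 had an unadjusted edgeR p below 0.05. With the block SMAD2 and SMURF1 were called higher and SMAD5 lower, where 22.3% of all genes were called. SMAD5 stood at −0.15 without the block in this comparison, and at 0.01 relative to the median of the 100 tested genes within 5 Mb. SMAD5, a carrier of the BMP signal, was lower in DU145KO+vector than in DU145KO, with a log2 fold change of −0.27 (edgeR adjusted p = 0.0224), a call lost without DU145KO replicate 1 (0.0788) or 2 (0.0709) or any 1 DU145KO+vector replicate (0.0566, 0.0624, 0.0511 and 0.0721 for replicates 1 to 4) and without the count filter (0.0501). Relative to the median of the tested genes within 5 Mb SMAD5 stood at −0.13 in that comparison.

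Of the 18 genes listed as induced by TGF-beta, 2 were higher and 3 lower in DU145KO+α2 against DU145KO+vector, and the median log2 fold change was −0.0026. Over all genes tested, 5.96% were called higher and 5.95% lower in this comparison. PMEPA1, a feedback inhibitor of the TGF-beta branch, was 40.0 to 44.5 CPM in DU145KO+α2, 23.2 to 25.5 CPM in DU145KO+vector and 30.5 to 37.2 CPM in DU145KO, with no overlap. Its log2 fold change was 0.80 against DU145KO+vector (edgeR adjusted p = 1.75e-05) and 0.30 against DU145KO (edgeR adjusted p = 0.0250), the latter lost without DU145KO replicate 4 (0.0703) or DU145KO+α2 replicate 3 (0.0576) or 4 (0.0776). DU145KO+vector was itself lower than DU145KO, at −0.50 (edgeR adjusted p = 0.00295), a call made in 20 of 20 alternatives. TPM1, a tropomyosin of actin filaments, was higher by 0.44 (edgeR adjusted p = 0.00313) and 0.51 (edgeR adjusted p = 0.00153).

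FN1, fibronectin, was lower in DU145KO+α2 between the transfected lines, at −0.51 (edgeR adjusted p = 0.0131), and stood at −0.06 against DU145KO, while DU145KO+vector against DU145KO stood at 0.45 (edgeR adjusted p = 0.0749, 0.0355 with the block, 0.0221 to 0.213 over 20 alternatives). CTGF, a matricellular protein, was lower in DU145KO+α2 against DU145KO+vector, at −0.67 (edgeR adjusted p = 0.0194), a call lost without DU145KO+α2 replicate 4 (0.0625) or DU145KO+vector replicate 1 (0.0688). Against DU145KO it stood at 0.02 (edgeR adjusted p = 0.970), and in DU145KO+vector against DU145KO at 0.68 (edgeR adjusted p = 0.0522, 0.000190 with the block, 0.000190 to 0.166 over 20 alternatives, 7 of which called it). TGFBI, a matrix protein, was lower in DU145KO+vector than in DU145KO, at −0.81 (edgeR adjusted p = 0.0322). That call was lost without DU145KO replicate 1 (0.05002) or 2 (0.0808), DU145KO+α2 replicate 1 (0.0528) or 2 (0.0511) or DU145KO+vector replicate 2 (0.0624), 3 (0.1004) or 4 (0.0983), without the count filter (0.0648) and in a fit of the compared lines alone (0.107). In DU145KO+α2 against DU145KO+vector, TGFBI was not called by the main test. Its log2 fold change there ran from 0.37 to 0.57 over 20 alternatives, 4 of which called it. Against DU145KO, TGFBI in DU145KO+α2 stood at −0.35 (edgeR adjusted p = 0.264, 0.0132 with the block, 0.0132 to 0.597 over 20 alternatives).

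Of the 9 tested genes listed as induced by BMP beside the ID members, 1 was higher and 1 lower in DU145KO+α2 against DU145KO+vector, where 5.96% of all genes were called higher and 5.95% lower. ATOH8, a basic helix-loop-helix factor, was 4.27 to 6.08 CPM in DU145KO+α2, 16.8 to 21.6 CPM in DU145KO+vector and 8.68 to 10.3 CPM in DU145KO, and the lines did not overlap. Its log2 fold change was −1.75 (edgeR adjusted p = 9.99e-07) against DU145KO+vector and −0.78 (edgeR adjusted p = 0.00154) against DU145KO, and DU145KO+vector was higher than DU145KO by 0.98 (edgeR adjusted p = 0.000536). ATOH8 and BMP4 were both lowest in DU145KO+α2, but in the lines without the cDNA ATOH8 was higher in DU145KO+vector and BMP4 in DU145KO. GATA3, a transcription factor, was 2.42 to 3.15 CPM in DU145KO+α2, 0.863 to 2.27 CPM in DU145KO+vector and 2.40 to 2.78 CPM in DU145KO. It was called between the transfected lines (log2 fold change 0.82, edgeR adjusted p = 0.0365). DU145KO+α2 overlapped DU145KO, at a log2 fold change of 0.10 (edgeR adjusted p = 0.859), and DU145KO+vector against DU145KO stood at −0.71 (edgeR adjusted p = 0.157, 0.0426 with the block, 0.0426 to 0.365 over 20 alternatives). The call between the transfected lines was lost without DU145KO+α2 replicate 2 (0.0890), 3 (0.0896) or 4 (0.0546) or DU145KO+vector replicate 1 (0.0838) or 3 (0.102), and in a fit of the compared lines alone (0.0560).

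The called genes among the other receptors and the antagonists had low counts. Over all genes tested, 11.9%, 8.17% and 2.34% were called in the 3 comparisons, and 26.5%, 22.3% and 13.4% with the block. Of 12 tested receptors and co-receptors, ENG, a TGF-beta co-receptor, was higher in DU145KO+α2 (1.21 to 2.30 CPM) than in DU145KO+vector (0.345 to 0.998 CPM), by 1.11 on the log2 scale (edgeR adjusted p = 0.0371). Without DU145KO+α2 replicate 1, its highest sample, the difference was 0.84 (adjusted p = 0.129), and the call was also lost without DU145KO+α2 replicate 3 (0.0506) or DU145KO+vector replicate 2 (0.0652), 3 (0.118) or 4 (0.0880). ACVR1C, a type I receptor of the activin branch, was lower in DU145KO+vector than in DU145KO, with a log2 fold change of −1.38 (edgeR adjusted p = 0.0341) at 5 to 22 counts per sample, and lost the call without DU145KO replicate 1 (0.0896), 2 (0.0923) or 3 (0.0596) or any 1 DU145KO+vector replicate (0.0800, 0.0674, 0.0616 and 0.0931 for replicates 1 to 4). Of 7 tested extracellular antagonists, CHRD, the BMP antagonist chordin, was lower in DU145KO+α2 than in DU145KO, at −1.16 (edgeR adjusted p = 0.0368), at 8 to 39 counts, and lost the call without DU145KO replicate 1 (0.109), 2 (0.0904) or 4 (0.0508) or DU145KO+α2 replicate 3 (0.111) or 4 (0.112). Of the other ligands, 6 of the TGF-beta and activin class and 4 of the BMP class were tested and none was called by edgeR without the block in any comparison. With the block TGFB3 and GDF5 were called higher in DU145KO+α2 against DU145KO+vector, and against DU145KO the BMP class ligands BMP8A, BMP8B and GDF5 were called higher and GDF15 lower. Between the transfected lines 1 of the 6 and none of the 4 had an unadjusted edgeR p below 0.05, in DU145KO+α2 against DU145KO none and 2, and in DU145KO+vector against DU145KO 1 and none. DESeq2 called 1 gene of the TGF-beta and activin class, between the transfected lines, and voom with limma called none.

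**Figure D5:**
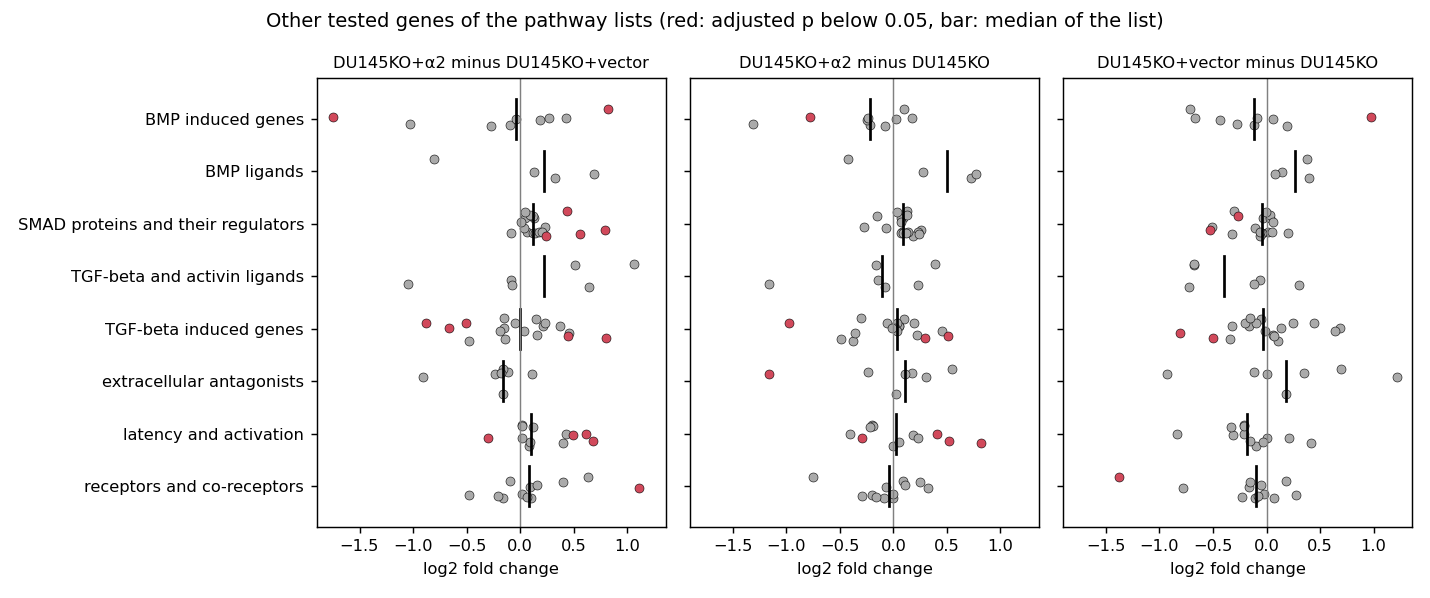
Log2 fold change of the 86 other tested genes of the pathway in the 3 comparisons, by list, with called genes in red and the median of each list as a bar. The list medians lie between −0.16 and 0.23 for the transfected lines, and red points stand on both sides of 0 among the genes listed as induced by TGF-beta and by BMP.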

How the data were processed

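RNA was sequenced from 12 spheroid samples, 4 per line, grouped by their labels. Per the labels and the methods of the study, stranded mRNA libraries were base called with bcl2fastq 1.8.4, aligned to hg38 with TopHat2 2.1.0, and uniquely aligned reads were counted per gene with Subread 1.5.0. The authors deposited the raw read counts, and RPKM values after TMM normalization with edgeR. The counts were tested here with edgeR 4.0.16 in R 4.3.3 (TMM, filterByExpr with a minimum count of 10, robust quasi-likelihood test, two-sided, a factor for the line over all 12 samples, Benjamini-Hochberg over 14732 genes). RPKM values served for levels only. Same-number samples correlated in their deviations from the line means (12 of 12 pairs above 0.1, r = 0.13 to 0.55). The mean for different numbers, −0.13, is tied to that of the same numbers, since the deviations within a line cancel out, and is no separate contrast. The numbers were taken as pairing the samples in the replicate block and the same-number pairs, although the labels do not say what a number shares. The main test leaves the number out, so its adjusted p-values are not paired. Replicates differed by more than sampling noise (chi-square per degree of freedom 6.98 to 23.7).

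The alternatives were DESeq2 1.42.0 (size factors, Wald test), library size alone, voom with limma 3.58.1, no or a stricter count filter, the compared lines alone, the replicate block, each sample left out, and subtraction of the median of genes within 5 Mb. Those for the named genes other than the members were chosen after seeing the data. The members and gene lists were chosen with earlier results of these data known. Named are the members, ITGA2, up to 4 called genes per list by smallest adjusted p, and the 3 genes most like each called member. EPCAM, CDH1, KRT8, KRT18 and KRT19 are markers. SMURF1, ITGAV, CTGF, TGFBI and the ligands called with the block alone were added after their values were seen. Of these genes and the cell type markers, 3 are not reported here. Positions come from GENCODE v44. The test recovered 78.0% of genes simulated with a fold change of 1.5 and 98.0% of those with a fold change of 2, in DU145KO+α2 against DU145KO+vector. The changed genes were drawn from well counted genes only, and no effect of the replicate number was simulated. These shares therefore do not carry over to genes with few counts, such as GATA3, ENG, CHRD and ACVR1C.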

Additional observations from a re-analysis of the deposited data

Results flagged for a closer look

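A sample was looked at again where its gap to the nearest of the 4 samples of its line as a share of the whole range exceeded Dixon's 95% critical value. Of 111 groups of 4 samples, 9 held such a sample, where chance gives about 5.55. Among the members, TGFBR2 in DU145KO+α2 replicate 3 was 137 CPM against 156 to 158 CPM in the other samples of the line (gap 0.904 of the range). ID1 in DU145KO+vector replicate 1 was 106 CPM against 61.6 to 68.1 CPM (0.853), and ID3 in DU145KO+α2 replicate 4 was 66.8 CPM against 43.8 to 46.7 CPM (0.877). Among the other pathway genes, ATOH8 in DU145KO+α2 replicate 4 was 4.27 CPM against 5.78 to 6.08 CPM (0.830), LTBP1 in DU145KO+α2 replicate 1 was 43.8 CPM against 39.6 to 39.8 CPM (0.962), and ENG in DU145KO+α2 replicate 1 was 2.30 CPM against 1.21 to 1.25 CPM (0.964). TPM1 held such a sample in every line, replicate 1 of DU145KO at 80.2 CPM (0.855), replicate 1 of DU145KO+α2 at 103 CPM (0.874) and replicate 2 of DU145KO+vector at 74.8 CPM (0.892), each above the rest of its line.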

How the results depend on the processing

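The replicate block moved the counts most. With it 3911, 3286 and 1980 genes were called in DU145KO+α2 against DU145KO+vector, DU145KO+α2 against DU145KO and DU145KO+vector against DU145KO (1754, 1203 and 344 without), 7, 4 and 2 members (3, 2 and 1 without) and 27, 23 and 20 other pathway genes (16, 9 and 6 without). Among the members, 7 calls were gained with the block and it changed no other call. In the same order of comparisons, leaving out 1 sample gave 1229 to 1841, 837 to 1197 and 160 to 528 genes, 1 to 3, 2 to 2 and 1 to 1 members, 0 to 0, 1 to 1 and 0 to 1 members at a fold change above 2, and 12 to 18, 7 to 10 and 3 to 7 pathway genes. Most of these moves lie in DU145KO+vector against DU145KO, which came to 177 genes without DU145KO replicate 1, 180 without replicate 2 and 528 without replicate 4, and to 193, 160 and 181 without DU145KO+vector replicates 2, 3 and 4. The 3 pathway genes left there were those without DU145KO replicate 2 or DU145KO+vector replicate 2, 3 or 4, and 1 member was left between the transfected lines without DU145KO+vector replicate 1. The DESeq2 Wald test called 587 genes in DU145KO+vector against DU145KO. Subtracting the median of neighbouring genes turned BMP1 between the transfected lines from 0.49 to −0.0486. No member reversed a direction called without the block. TGFBR1 between the transfected lines, called with the block alone (log2 fold change −0.17), stood at 0.15 after this subtraction from its value without the block. The cause of these changes was not tested, other than fewer samples where 1 was left out. Depth limits INHBA, ACVR1C, ENG and CHRD, with few counts per sample.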
